A study of Mus musculus with 6 samples.

Results

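The genes described here are the STAT transcription factors Stat2, Stat3, Stat4, Stat5a, Stat5b and Stat6, taken by gene symbol from a deposited table of 28789 genes. All 6 had a row, and 5 of them were expressed highly enough to be tested. STAT proteins wait in the cytoplasm until a Janus kinase bound to a cytokine receptor phosphorylates them on a tyrosine. They then pair through their SH2 domains, enter the nucleus and bind DNA near target genes. STAT activity is set by phosphorylation, which RNA sequencing does not measure, so the values below concern the amount of STAT transcript and not how active the proteins were.

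The libraries came from TCMK1 cells, an immortalised mouse line of renal tubular epithelium. The YOD1 group (n = 3) carried the genotype label YOD1 and was treated with angiotensin II (Ang II), a peptide hormone that drives blood pressure and fibrotic signalling in kidney. The control group (n = 3) carried the genotype label control and received Ang II as well, so neither group shows the effect of Ang II. YOD1 is a deubiquitinase, and the series asked which pathways it regulates in Ang II-treated cells, with the JAK2 protein named in its title. The sources used here do not give the vector or delivery behind the YOD1 label, nor whether control cells received a matching one.

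Levels are in FPKM, a fragment number scaled to transcript length and library total, so genes can be compared per length. Summed FPKM was 326137 to 352209 in YOD1 libraries and 314172 to 320924 in controls, and the read depth behind these values is unknown. Genes above 0 numbered 22045 to 22896 in YOD1 libraries and 22874 to 23374 in controls. Ribosomal RNA genes took 2.20% to 3.94% of summed FPKM in YOD1 libraries and 0.448% to 0.772% in controls. Yod1 itself was at 1.73, 7.56 and 1.86 FPKM in the YOD1 libraries, against 0.842, 0.757 and 0.684 FPKM in the controls. Every YOD1 library was above every control, with YOD1 library 2 far above the other two. On the log2(FPKM + 1) scale the fold change was 1.21 (SE 0.375), with a limma adjusted p of 0.141. The authors' deposited table gives Yod1 a log2 ratio of group means of 2.29 and a q-value of 0.0310, and marks it as significant. No control reached 1 FPKM for Yod1. It passed the filter of at least 1 FPKM in at least 3 libraries only through the YOD1 libraries, so its limma fold is no support for a direction.

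Promoters of 3 STAT genes are shown because they place the family in the genome and hold letters that the results return to. The sequences are the 250 bases upstream of an annotated transcription start from RefSeq, build GRCm38.p6, written on the gene's own strand from 5′ to 3′. In Stat2 (chr10:128270248-128270497, plus strand) the capitals mark a match to TTTCNNTTTC, the core of the interferon-stimulated response element that STAT2-containing complexes are known to bind. In Stat5a (chr11:100860234-100860483, plus strand) and Stat5b (chr11:100822571-100822820, minus strand) the capitals mark the longest run of bases that these windows share. Stat5a and Stat5b each have a second annotated window that is not shown.
Stat2: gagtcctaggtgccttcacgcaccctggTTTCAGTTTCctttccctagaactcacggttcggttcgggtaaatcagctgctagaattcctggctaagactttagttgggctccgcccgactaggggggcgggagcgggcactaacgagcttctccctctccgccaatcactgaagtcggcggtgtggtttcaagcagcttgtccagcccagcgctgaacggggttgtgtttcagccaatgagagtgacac
Stat5a: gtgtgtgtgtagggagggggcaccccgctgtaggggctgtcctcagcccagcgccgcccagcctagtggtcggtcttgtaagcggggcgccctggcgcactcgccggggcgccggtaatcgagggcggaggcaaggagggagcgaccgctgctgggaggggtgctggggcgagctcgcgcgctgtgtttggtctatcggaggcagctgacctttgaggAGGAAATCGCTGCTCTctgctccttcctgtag
Stat5b: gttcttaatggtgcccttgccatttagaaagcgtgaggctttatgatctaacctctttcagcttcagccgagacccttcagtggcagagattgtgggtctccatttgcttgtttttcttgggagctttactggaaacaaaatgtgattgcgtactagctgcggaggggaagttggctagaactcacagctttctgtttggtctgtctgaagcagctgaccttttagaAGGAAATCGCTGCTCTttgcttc
The Stat2 match began 222 bases before the start. The shared run of Stat5a and Stat5b was 16 bases long and began 32 bases before the start in Stat5a and 23 in Stat5b.

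The 6 genes had 9 annotated promoter windows of 300 bases, 250 before and 50 after the start. Both strands were searched for TTTCNNTTTC, which was in 2 of the 9 windows and in 3.44% of 32851 promoter windows of the same table. The other match was GAAAGTGAAA, the reverse complement pattern, in one of the Stat4 windows, beginning 97 bases before the start. The gamma-activated site TTCNNNGAA, which STAT dimers are known to bind, was in 0 of the 9 windows and in 8.30% of all windows. These are matches of letters, and no binding was measured.

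The amounts of STAT transcript differed widely within the family. Stat6 was the most abundant, followed by Stat5b, in both groups, and Stat4 was at or next to 0. In the YOD1 libraries the order of mean FPKM was Stat6, Stat5b, Stat2, Stat3, Stat5a and Stat4. In the controls it was Stat6, Stat5b, Stat3, Stat5a, Stat2 and Stat4. In the YOD1 libraries the ranges of Stat5b and Stat2, of Stat2 and Stat3, and of Stat3 and Stat5a overlapped, while Stat6 and Stat5b were narrowly apart. In the controls the ranges of Stat3 and Stat5a overlapped, as did those of Stat5a and Stat2, and the other neighbours were apart.

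**Figure D1:**
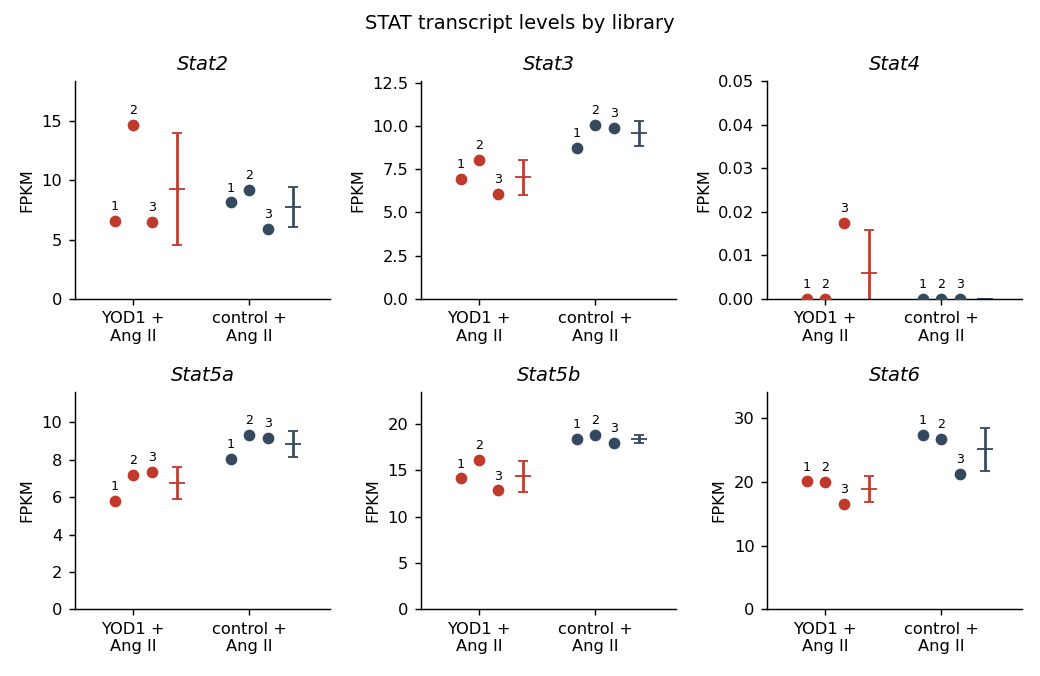
FPKM (vertical axis, a separate scale for each gene) of the 6 STAT genes in the 3 YOD1 and 3 control libraries, all treated with Ang II; points are libraries with their replicate number, and the bar beside them is the mean with its SD. The YOD1 points of Stat3, Stat5a, Stat5b and Stat6 all lie below the control points, Stat2 overlaps with YOD1 library 2 at 14.7 FPKM, and Stat4 is at 0 in 5 of the 6 libraries.

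Stat2 is the interferon-dedicated member. With a second STAT protein and IRF9 it forms ISGF3, the complex that turns on antiviral genes after type I and type III interferon. Stat2 (ENSMUSG00000040033) was at 6.60, 14.7 and 6.47 FPKM in the YOD1 libraries, against 8.14, 9.18 and 5.91 FPKM in the controls. YOD1 library 2 stood above every other library, and the other two YOD1 libraries lay within the control range. The means were 9.26 ± 4.73 FPKM in YOD1 cells and 7.74 ± 1.67 FPKM in controls (SD, n = 3 each). The log2 fold change was 0.16 (SE 0.285, 95% interval −0.48 to 0.80), with a limma adjusted p of 0.765. Without YOD1 library 2 the Stat2 log2 fold change was −0.20, and without control library 3 it was −0.0026, so its sign rests on single libraries. YOD1 library 2 was also the library with the most Yod1, and the part of that in the Stat2 level was not tested.

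Stat3 carries the signal of IL-6 family cytokines and turns on acute-phase and survival genes. Stat3 (ENSMUSG00000004040) was at 6.93, 8.05 and 6.08 FPKM in the YOD1 libraries, against 8.75, 10.1 and 9.88 FPKM in the controls. All 3 YOD1 libraries were below all 3 controls. The mean was 7.02 ± 0.991 FPKM in YOD1 cells and 9.57 ± 0.720 FPKM in controls (SD, n = 3 each), a mean 26.6% lower. On the log2(FPKM + 1) scale the fold change was −0.40 (SE 0.152, 95% interval −0.74 to −0.06). This scale understates changes, and does so more the lower the FPKM of a gene. The log2 ratio of group means in the authors' deposited table was −0.45 for Stat3. The limma unadjusted p was 0.0251 and the adjusted p over all 11483 tested genes was 0.189, so Stat3 did not pass the threshold of 0.05.

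Stat5a and Stat5b are a close pair that act downstream of prolactin, growth hormone and erythropoietin-type receptors. Stat5b (ENSMUSG00000020919) was at 14.1, 16.1 and 12.8 FPKM in the YOD1 libraries, against 18.4, 18.8 and 18.0 FPKM in the controls. Stat5a (ENSMUSG00000004043) was at 5.77, 7.18 and 7.33 FPKM in the YOD1 libraries, against 8.03, 9.30 and 9.17 FPKM in the controls. Neither gene's groups overlapped, and the control values of Stat5b lay close together while its YOD1 values were more spread. Stat5b averaged 14.4 ± 1.66 FPKM in YOD1 cells and 18.4 ± 0.409 FPKM in controls (SD, n = 3 each), with a log2 fold change of −0.34 (SE 0.133, 95% interval −0.64 to −0.04) and a limma adjusted p of 0.201. Stat5a averaged 6.76 ± 0.859 FPKM in YOD1 cells and 8.84 ± 0.698 FPKM in controls (SD, n = 3 each), with a log2 fold change of −0.35 (SE 0.151, 95% interval −0.68 to −0.01) and a limma adjusted p of 0.235. Of the 31-base words in the longest Stat5a transcript, 15.6% also occur in the longest Stat5b transcript, and 16.1% of those of Stat5b occur in Stat5a. How the reads from these stretches were divided between the pair is uncertain. No 31-base word was shared by any other pair of the 6 genes.

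Stat6 answers IL-4 and IL-13. Stat6 (ENSMUSG00000002147) was at 20.0, 19.9 and 16.5 FPKM in the YOD1 libraries, against 27.3, 26.7 and 21.2 FPKM in the controls. The groups did not overlap, and replicate 3 was the lowest library in each. The mean was 18.8 ± 1.98 FPKM in YOD1 cells and 25.1 ± 3.36 FPKM in controls (SD, n = 3 each), a mean 24.9% lower and the largest difference in FPKM within the family. The log2 fold change was −0.39 (SE 0.147, 95% interval −0.72 to −0.06), with a limma unadjusted p of 0.0245 and an adjusted p of 0.188.

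Stat4, which serves IL-12 in T cells and natural killer cells, was listed at 0, 0 and 0.0174 FPKM in the YOD1 libraries and at 0 in all 3 controls. It did not reach at least 1 FPKM in at least 3 libraries and was not tested. No fold is given against a group at 0, and the authors' deposited table gives Stat4 a q-value of 0.934. The other 5 members were above 5 FPKM in every library, so the filter did not choose among their directions.

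None of the 5 tested STAT genes passed the test. The limma fit called 55 of 11483 genes, 0.479% of those tested, of which 51 were higher (0.444%) and 4 were lower (0.0348%) in YOD1 cells. Of the 6 STAT genes 0 are marked as significant in the authors' deposited table, against 286 of all 28789 genes. The q-values in the authors' deposited table were 0.368 for Stat3, 0.494 for Stat6, 0.589 for Stat5b, 0.663 for Stat5a and 0.862 for Stat2. Lower in YOD1 cells with an unadjusted limma p under 0.05 were 4 of the 5 tested members and 13.0% of all tested genes. Lower without overlap between the groups were the same 4 members, Stat3, Stat5a, Stat5b and Stat6, and 19.1% of all tested genes. Higher without overlap were 0 of 5 members and 9.77% of all tested genes. The labels do not say whether the libraries came from separate cultures, so these p-values measure the spread between libraries, which may be technical. In bulk RNA, fewer cells that express a gene and less RNA per cell cannot be told apart.

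**Figure D2:**
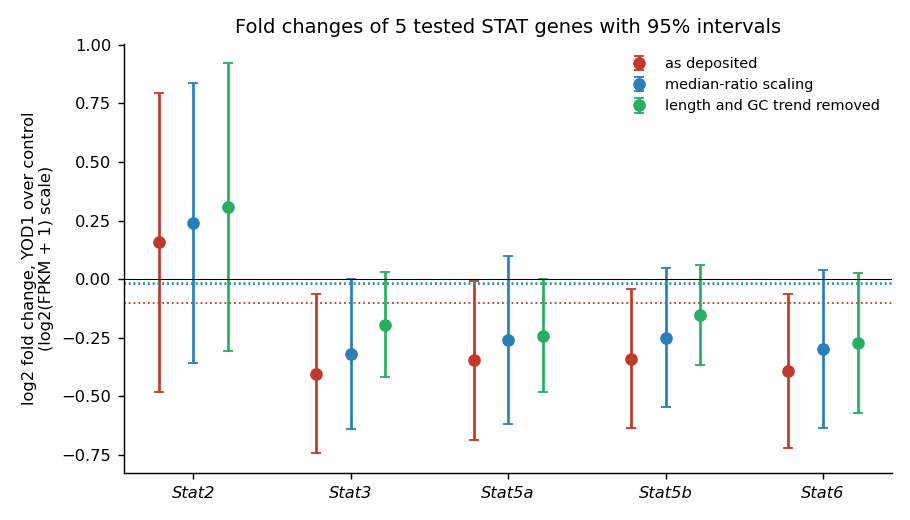
Log2 fold change, YOD1 over control, on the log2(FPKM + 1) scale (vertical axis) with 95% intervals from limma for the 5 tested STAT genes, on the deposited values, after median-ratio scaling and after removal of the trend with length and GC; dotted lines are the median of all genes in each case (−0.10, −0.02 and −0.02). Stat3, Stat5a, Stat5b and Stat6 stay below 0 in all cases, and after either correction their intervals reach past 0, except that of Stat5a with the trend removed.

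The lower values of Stat3, Stat5a, Stat5b and Stat6 lay within a broad lean of long transcripts. Over all tested genes the median log2 fold change was −0.10. Stat3 ranked at the 13.1 percent point of all fold changes counted from the lowest, Stat6 at 14.2, Stat5a at 18.7 and Stat5b at 19.4. When genes were put into 10 bins by transcript length, the bin of the shortest had a median log2 fold change of 0.09 and that of the longest −0.30. The share of genes lower without overlap was 5.53% in the shortest bin and 37.8% in the longest. Stat5a (3958 bases) and Stat6 (3775 bases) fell into the bin with a median of −0.14, where 22.8% of genes were lower without overlap. Stat3 (6042 bases) and Stat5b (5213 bases) fell into the bin with a median of −0.23 and a share of 32.7%. Stat2 (4397 bases) fell into the bin with a median of −0.20 and a share of 27.7%.

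Set against the median of its own length bin, the log2 fold change was −0.25 for Stat6, −0.20 for Stat5a, −0.17 for Stat3 and −0.11 for Stat5b, and Stat2 was 0.35 above it. Within their bins 14.6% of genes were at or below Stat6, 19.4% at or below Stat3, 20.5% at or below Stat5a, 30.2% at or below Stat5b and 91.1% at or below Stat2. The lean was uneven between libraries. In the bin of Stat3 and Stat5b the median deviation from the control mean was −0.18, −0.06 and −0.43 in YOD1 libraries 1, 2 and 3. Stat3 deviated by −0.41, −0.22 and −0.58 in the same libraries and Stat5b by −0.36, −0.18 and −0.48, so both followed the order of their bin. In the bin of Stat5a and Stat6 the median deviation was −0.08, −0.05 and −0.27. Stat5a deviated by −0.54, −0.26 and −0.24, lowest in library 1, where its bin was lowest in library 3. Stat6 deviated by −0.30, −0.31 and −0.56, lowest in library 3 as was its bin. With the trend on length and GC content removed, the log2 fold change was −0.27 for Stat6, −0.24 for Stat5a, −0.19 for Stat3 and −0.15 for Stat5b, with limma adjusted p of 0.216 to 0.348 for these 4 genes. The Stat3 and Stat5b values thus shrank by more than 1.5 times. The length trend and the ribosomal RNA share moved with the group, and their part in the STAT values was not tested beyond this.

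**Figure D3:**
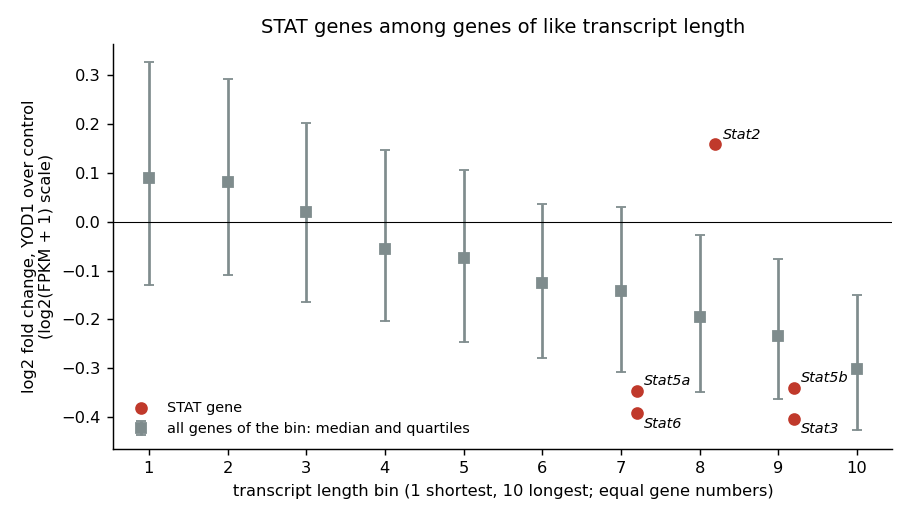
Log2 fold change, YOD1 over control, on the log2(FPKM + 1) scale (vertical axis) against transcript length in 10 bins of nearly equal gene number (horizontal axis); squares and bars are the median and quartiles of all genes of the bin and red points are the STAT genes, drawn slightly to the right of their bin. Stat5a, Stat6 and Stat3 lie below the lower quartile of their bins, Stat5b lies between the lower quartile and the median of its bin, and Stat2 lies above the upper quartile.

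Summed over the family, STAT transcripts came to 53.5, 66.0 and 49.3 FPKM in the YOD1 libraries, against 70.6, 74.1 and 64.1 FPKM in the controls. YOD1 library 2, with its high Stat2, came above the lowest control, so the groups overlapped in this sum. Stat2 made up 12.3%, 22.3% and 13.1% of the family's FPKM in the YOD1 libraries, against 11.5%, 12.4% and 9.22% in the controls. The share of Stat6 was 33.7 ± 3.67% in YOD1 cells and 35.9 ± 2.80% in controls, and that of Stat5b was 25.7 ± 1.05% in YOD1 cells and 26.5 ± 1.38% in controls (SD, n = 3 each).

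Ratios between members within a library do not depend on how the library was scaled. All 10 pairs of the 5 tested genes were compared. The ratio of Stat2 to Stat3 was 0.952, 1.83 and 1.07 in the YOD1 libraries, against 0.931, 0.910 and 0.599 in the controls. The groups did not overlap, and the mean log2 ratio was 0.62 higher in YOD1 cells. The two-sided exact permutation p was 0.1, the smallest that 3 against 3 libraries allow, and 0.6 after Benjamini-Hochberg adjustment over the 10 pairs. The ratios of Stat2 to Stat5a, Stat5b and Stat6 differed by 0.56, 0.53 and 0.58 on the log2 scale with overlapping groups. The 6 ratios among Stat3, Stat5a, Stat5b and Stat6 differed by −0.09 to 0.05 on the log2 scale, with exact permutation p of 0.3 to 1 and adjusted p of 0.6 to 1.

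Across the 6 libraries, Stat3 and Stat5b varied together most closely within the family, with a Pearson r of 0.97 on log2(FPKM + 1), followed by Stat5b and Stat6 at 0.88. Stat5a and Stat6 had an r of 0.51, and Stat2 had r of −0.02 to 0.24 with the others. These 6 points share 2 groups and the same length trend, so the coefficients are a description. Among all tested genes the closest to Stat3 were Drosha, Ralgps1 and Ywhag (r of 0.994 to 0.996), and 196 genes had an r over 0.95. The closest to Stat5b were Rreb1, Cenpf and C2cd5, with 319 genes over 0.95, and the closest to Stat6 were Hsd17b7, Socs7 and Acly, with 180. For Stat5a they were Nr2c1, Zfp651 and P4ha1, with 30 genes over 0.95. For Stat2 they were Slc1a5, Rnf135 and Gm6047, and 2 genes exceeded 0.95.

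Stat5b, Stat5a and Stat3 lie next to each other on chromosome 11 in the RefSeq annotation of GRCm38.p6. Of the flanking genes, Ghdc and Cavin1 did not share their separation between groups. Hcrt, beyond Ghdc, was not tested, at 0.186, 0.559 and 0.626 FPKM in the YOD1 libraries and at 0 in the controls. Gm46295, beside Stat3, had no row. Ghdc, on the Stat5b side, was at 13.9, 12.0 and 12.2 FPKM in the YOD1 libraries, against 15.4, 12.4 and 15.8 FPKM in the controls. Cavin1, a caveolar coat protein gene on the Stat3 side, was at 151, 155 and 113 FPKM in the YOD1 libraries, against 130, 150 and 147 FPKM in the controls. The groups overlapped for both, with log2 fold changes of −0.17 and −0.04. Stat2 and Stat6 lie on chromosome 10. Il23a, which follows Stat2, was at 1.15, 0.994 and 1.42 FPKM in the YOD1 libraries, against 1.81, 1.63 and 1.71 FPKM in the controls. Nab2, whose annotated span overlaps Stat6, was at 6.51, 7.92 and 6.09 FPKM in the YOD1 libraries, against 14.3, 17.3 and 7.76 FPKM in the controls. Strand was not stated for these libraries, so reads from the overlap of Stat6 and Nab2 cannot be told apart.

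The kinases that phosphorylate STATs gave 0 calls, where 0.479% of all tested genes were called. At that share, 0 calls in lists as short as those here and below says little about their genes. Of the 4 Janus kinases 0 passed the test, 3 had a negative log2 fold change, and their median was −0.33, against −0.10 over all genes. That median was −0.12 with the length and GC trend removed and −0.21 without YOD1 library 3. Jak2 was at 1.23, 1.30 and 0.890 FPKM in the YOD1 libraries, against 1.59, 1.16 and 2.39 FPKM in the controls, with overlapping groups and a limma adjusted p of 0.338. Tyk2, the kinase paired with interferon and IL-12 receptors, was at 7.56, 8.96 and 8.80 FPKM in the YOD1 libraries, against 10.6, 12.1 and 10.2 FPKM in the controls (log2 fold change −0.34, limma adjusted p 0.222). Jak1, used by most of these receptors, had a log2 fold change of −0.41 with a limma adjusted p of 0.268. Of 9 other tested tyrosine kinases that can phosphorylate STATs 0 passed, with a median of −0.21. It was 0.04 with the length and GC trend removed, −0.04 without YOD1 library 3 and −0.06 without control library 3, so its sign rests on the processing. Erbb2 had the lowest limma adjusted p of them, 0.141, at a log2 fold change of −0.55.

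Receptors and ligands upstream of the STATs also gave 0 calls on the deposited values, against 0.479% of all tested genes. All 6 interferon receptor genes had a negative log2 fold change, with a median of −0.29, and among them the type III receptor chain Ifnlr1 was at 3.64, 4.44 and 2.94 FPKM in the YOD1 libraries, against 5.26, 6.12 and 4.98 FPKM in the controls (limma adjusted p 0.179). The median was −0.19 with the length and GC trend removed, −0.18 without YOD1 library 3 (5 of 6 negative) and −0.18 without control library 1. Of 8 gp130 family receptors 4 were tested, 2 in each direction, with a median of −0.07 that was 0.06 with the length and GC trend removed, 0.01 without YOD1 library 2 and 0.0059 after median-ratio scaling. Cntfr, the receptor chain for ciliary neurotrophic factor, had the lowest limma adjusted p of them, 0.302, at a log2 fold change of 0.31. Fewer than 3 controls reached 1 FPKM for Cntfr, so it passed the filter only with YOD1 libraries and its fold is no support for a direction. Il6st, the shared gp130 chain, had a log2 fold change of −0.26 and a limma adjusted p of 0.443. The 2 tested IL-4 and IL-13 receptor chains, Il13ra1 and Il4ra, were at −0.23 and −0.05. The 2 tested receptors of the growth hormone and prolactin group, Il2rb and Epor, were at −0.32 and 0.02, and the 1 tested IL-12 receptor chain, Il12rb1, was at 0.27. Of 18 ligands in the list 3 were tested, with a median of −0.13 that was −0.04 after median-ratio scaling and −0.03 with the length and GC trend removed. Lif had the lowest limma adjusted p, 0.470, at 6.59, 6.70 and 6.45 FPKM in the YOD1 libraries, against 12.9, 12.0 and 4.46 FPKM in the controls. Without control library 3, 1 ligand was called as lower, a setting in which 97 of all 11483 tested genes were called as lower.

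Inhibitors of the pathway gave 0 calls, against 0.479% of all tested genes. Their list medians shrank when the length and GC trend was removed or YOD1 library 3 was left out. All 5 tested SOCS genes, which encode feedback inhibitors of Janus kinases, had negative log2 fold changes with a median of −0.38. The median was −0.06 with the trend removed and −0.08 without YOD1 library 3, where 4 of 5 were negative. Cish, a STAT5 target of this family, was at 1.28, 1.21 and 1.52 FPKM in the YOD1 libraries, against 2.43, 2.51 and 1.83 FPKM in the controls. Its groups did not overlap, and its log2 fold change was −0.47 with a limma adjusted p of 0.153. Of 4 PIAS genes 3 were negative, with a median of −0.22 that was −0.08 with the trend removed and −0.05 without YOD1 library 3. Pias3, whose protein binds STAT3 and blocks its DNA binding, was at 13.1, 13.2 and 15.2 FPKM in the YOD1 libraries, against 20.2, 24.4 and 20.9 FPKM in the controls. Its groups were well apart and its log2 fold change was −0.62, with a limma adjusted p of 0.0811. Of 5 tested phosphatases 4 were negative, with a median of −0.15 that was −0.05 with the trend removed, −0.07 after median-ratio scaling, −0.09 without control library 1 and −0.06 without YOD1 library 3. Ptpn11, which encodes SHP2, was at −0.47 with a limma adjusted p of 0.205.

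Among 14 tested partners, coactivators and import factors 0 passed the limma test, against 0.479% of all tested genes. Their median was −0.10, against −0.10 over all genes. Leaving out YOD1 library 2 gave a median of −0.35, leaving out YOD1 library 3 gave 0.02, and removing the length and GC trend gave 0.03. Irf9, the DNA-binding partner of STAT2 in ISGF3, was at 9.87, 25.4 and 9.82 FPKM in the YOD1 libraries, against 4.55, 5.68 and 5.94 FPKM in the controls. All 3 YOD1 libraries were above all controls, and library 2 was again the highest. The Irf9 log2 fold change was 1.20 (SE 0.312) with a limma adjusted p of 0.115, while the authors' deposited table gives it a q-value of 6.09e-05 and marks it as significant. Kpna6, an importin, was at −0.52 with a limma adjusted p of 0.147.

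**Figure D4:**
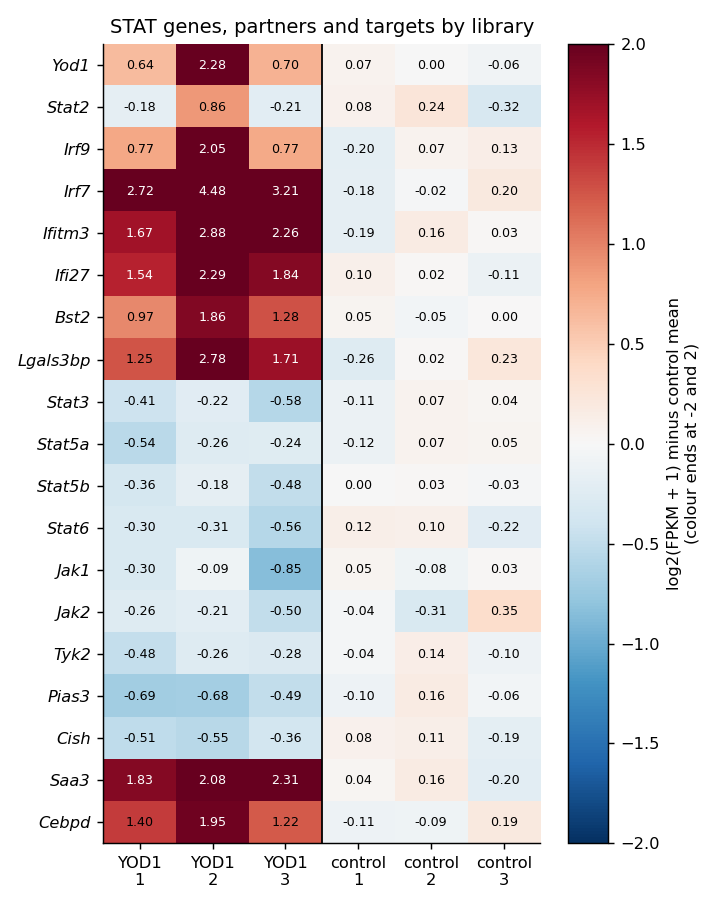
Log2(FPKM + 1) minus the control mean of each gene (colour and printed values, with colours ending at −2 and 2) for Yod1, STAT genes, kinases, inhibitors and selected targets in the 3 YOD1 and 3 control libraries. Yod1, Stat2, Irf9, Irf7, Ifitm3, Ifi27, Bst2 and Lgals3bp have their highest value in YOD1 library 2, and Stat3, Stat5b, Stat6, Jak1 and Jak2 have their lowest in YOD1 library 3. Of all tested genes, 12.0% have their highest value in YOD1 library 2 and 42.5% have their lowest in YOD1 library 3.

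Some target genes of ISGF3 rose, whereas Stat2 itself did not pass the test. Of 35 genes in the list 25 were tested, and 5 passed as higher and 0 as lower, where 0.444% of all tested genes passed as higher. The target lists were chosen with earlier results of these data known, so the shares given here and below are a description and no independent support. The 5 were Ifi27, Irf7, Ifitm3, Bst2 and Lgals3bp. Irf7, a transcription factor that amplifies interferon output, was at 26.9, 93.3 and 38.2 FPKM in the YOD1 libraries, against 2.73, 3.19 and 3.86 FPKM in the controls (log2 fold change 3.47, SE 0.367, limma adjusted p 0.00534). Ifitm3, which blocks virus entry, was at 150, 348 and 226 FPKM in the YOD1 libraries, against 40.7, 51.9 and 47.4 FPKM in the controls (log2 fold change 2.27, limma adjusted p 0.00672). Ifi27 and Bst2 had log2 fold changes of 1.89 and 1.37 with limma adjusted p of 0.00412 and 0.0226.

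Over the 25 tested ISGF3 targets the median log2 fold change was 1.40, with 23 positive and 2 negative, and 20 were higher without overlap, against 9.77% of all tested genes. Of the 25, 17 reached at least 1 FPKM in all 6 libraries and 3 had all controls below 1 FPKM. Every gene with any control below 1 FPKM passed the filter only with YOD1 libraries. The median and the counts above include such genes, which the filter kept through their YOD1 values. The median deviation from the control mean was 0.83, 2.29 and 1.21 in YOD1 libraries 1, 2 and 3. YOD1 library 2 held the highest value of 24 of the 25 genes (96%), against 12.0% of all tested genes. Without YOD1 library 2 the median was 1.04 and 10 genes were called, and without YOD1 library 1 there were 8 calls. Of all 11483 tested genes, 46 and 40 were called as higher in these settings. Without control library 1, and likewise without control library 2, there were 3 calls, where 30 and 17 of all tested genes were called as higher. With no filter on low values 0 of 35 were called, and 0 of all 28789 genes. With median-ratio scaling 9 of 25 were called, where 136 of all 11483 were called as higher. With the length and GC trend removed 3 of 25 were called, where 26 of all 11386 were called as higher. With a pseudocount of 0.1 the median was 1.99 and 4 of 25 were called, where 40 of all 11483 were called as higher.

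Targets of the other STATs gave 2 calls in all on the deposited values. Of 25 tested STAT3 targets, a list that includes Stat3 itself, 13 were positive and 12 negative with a median of 0.04 (−0.09 to 0.09 over the alternatives), and 2 passed as higher, where 0.444% of all tested genes did. Saa3, an acute-phase serum amyloid gene, was at 72.6, 86.7 and 102 FPKM in the YOD1 libraries, against 20.4, 22.1 and 17.0 FPKM in the controls (log2 fold change 2.07, SE 0.158, limma adjusted p 0.00228). Cebpd, which encodes the transcription factor C/EBP delta, was at 3.95, 6.22 and 3.37 FPKM in the YOD1 libraries, against 0.739, 0.763 and 1.14 FPKM in the controls (log2 fold change 1.53, SE 0.207, limma adjusted p 0.0168). Fewer than 3 controls reached 1 FPKM for Cebpd, so it passed the filter only through the YOD1 libraries and its call is no support for a direction. With at least 5 FPKM in at least 3 libraries, 1 of 19 tested STAT3 targets was called, where 40 of all 7061 tested genes were called as higher. In the YOD1 libraries Stat3 stood lower. Leaving out one library gave 1 to 3 higher calls among the STAT3 targets. There was 1 without control library 1 or 2, where 30 and 17 of all 11483 tested genes were called as higher. There were 3 higher and 2 lower without control library 3. Without control library 3, 145 of all 11483 tested genes were called as higher and 97 as lower. Of 13 tested STAT5 targets 0 passed, though 2 were called as higher without control library 3. Their median of −0.04 had no steady sign, at 0.04 after median-ratio scaling, 0.04 without YOD1 library 3 and −0.09 without control library 2 or 3, and Id1 had the lowest limma adjusted p, 0.116, at a log2 fold change of 1.52. Of 7 tested STAT6 targets 0 passed, with a median of 0.22 that was 0.11 without YOD1 library 2 and 0.11 without control library 1. Chil3, a chitinase-like protein gene, had the lowest limma adjusted p of them, 0.173. It was at 1.04, 1.36 and 1.36 FPKM in the YOD1 libraries, against 0, 0.782 and 0.738 FPKM in the controls, so it passed the filter only through the YOD1 libraries and its log2 fold change is no support for a direction.

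**Figure D5:**
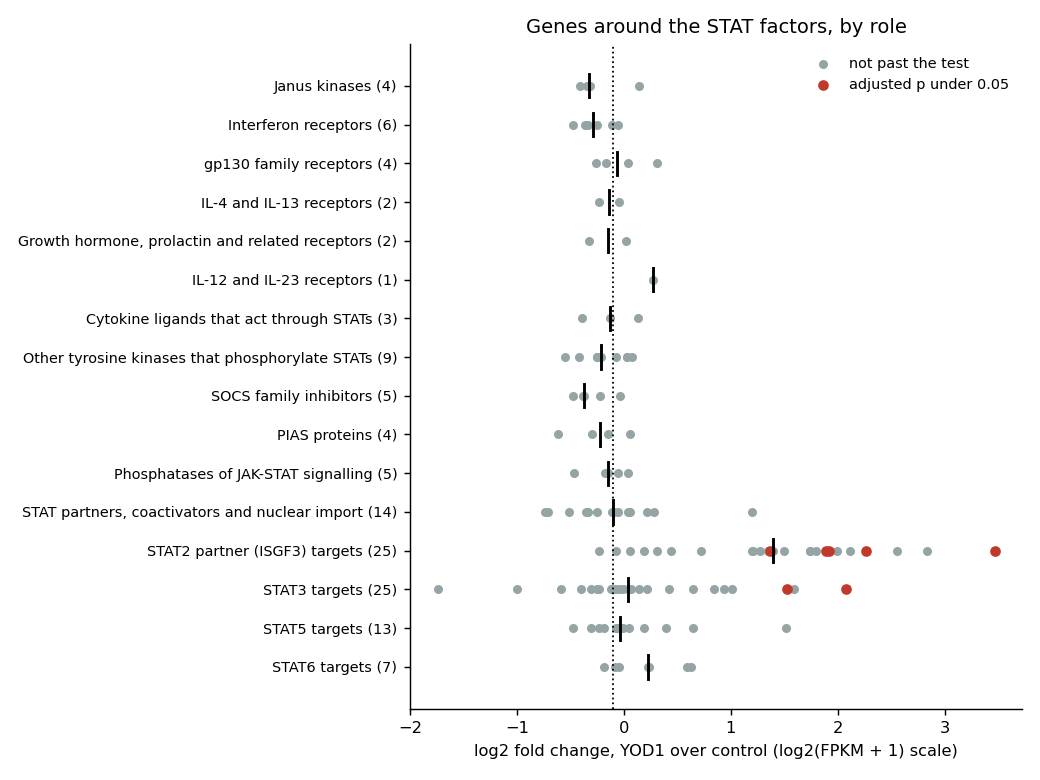
Log2 fold change, YOD1 over control, on the log2(FPKM + 1) scale (horizontal axis) of the tested genes of each list (rows, with the number tested); grey points did not pass the test, red points had a limma adjusted p under 0.05, black bars are list medians and the dotted line is the median of all tested genes, −0.10. Red points occur in 2 rows, 5 among the ISGF3 targets and 2 among the STAT3 targets, and all 7 lie to the right.

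Marker genes were read for the cell types that the cultures could hold. Of 16 tubular epithelial markers with a row 11 were tested and 0 passed, with a median log2 fold change of −0.18 and a summed level of 825 to 1083 FPKM in YOD1 libraries and 755 to 873 FPKM in controls. Pax8, the nephron lineage factor, was at 26.5, 25.7 and 28.3 FPKM in the YOD1 libraries, against 36.5, 40.7 and 34.0 FPKM in the controls (limma adjusted p 0.120). The keratin gene Krt18 lay the other way without overlap, at 629, 595 and 820 FPKM in the YOD1 libraries, against 482, 514 and 587 FPKM in the controls (limma adjusted p 0.259). Krt8 was likewise higher without overlap, with a log2 fold change of 0.35. Of the 11 tested markers 3 were lower and 2 higher without overlap, against 19.1% and 9.77% of all tested genes. Slc34a1, a phosphate transporter of the proximal tubule, was at or next to 0 in all libraries. Of 12 leukocyte and T cell markers with a row 9 were below 1 FPKM in every library, Ptprc, the pan-leukocyte marker CD45, stayed at or below 0.0708 FPKM, and the list summed to 28.1 to 38.7 FPKM in YOD1 libraries and 24.7 to 35.7 FPKM in controls. In that list Lyz2 was at 10.5, 18.0 and 18.7 FPKM in the YOD1 libraries, against 1.47, 8.15 and 9.04 FPKM in the controls (limma adjusted p 0.158). Cd68 was at 12.3, 12.9 and 15.3 FPKM in the YOD1 libraries, against 19.1, 22.9 and 12.6 FPKM in the controls (limma adjusted p 0.307). The other tested one, Csf1r, had a log2 fold change of 0.05. All 7 endothelial markers were below 1 FPKM in every library, summing to 2.11 to 3.05 FPKM in YOD1 libraries and 1.49 to 2.37 FPKM in controls. Of 10 fibroblast markers 6 were tested and 0 passed, and they summed to 11.7 to 20.2 FPKM in YOD1 libraries and 17.0 to 19.5 FPKM in controls.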

How the data were processed

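RNA of TCMK1 cells was sequenced as paired ends on an Illumina NovaSeq instrument, per the labels' protocols. The protocol describes poly(A) selection, but it also speaks of an adipose type and of both poly(A)- and poly(A)+ RNA, so the selection of these libraries, which bears on their ribosomal RNA shares, is uncertain. The submitters' processing notes name build mm8 together with StringTie 1.3.0, HISAT2 2.0 and Bowtie 0.12.2, with no role given. The authors deposited FPKM per gene and library, beside the ratio (fold) of group means, the log2 of that ratio and their own p-value and q-value, per the file headers. The authors' test, the strand and the read depth are not given in the sources used here. FPKM are not counts, so no interval from counting error is given.

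From the deposited FPKM, log2(FPKM + 1) was compared between 3 YOD1 and 3 control libraries with limma 3.58.1 (intensity trend) in R 4.3.3, over the 11483 genes that reached 1 FPKM in at least 3 of the 6 libraries. P-values were adjusted by Benjamini-Hochberg over all tested genes, at a threshold of 0.05. No 2 libraries held the same values: pairs shared 0 to 6 identical values above 0. Pearson r across genes was 0.971 to 0.989 within groups and 0.955 to 0.981 between groups, so the ranges overlapped. Ratios between members were tested with two-sided exact permutation tests. Transcript length and GC content came from the longest listed transcript, for 99.2% of tested genes. Promoters and gene order came from RefSeq GRCm38.p6, which is not the authors' build. All 6 STAT genes were reported. From most gene lists the text gave counts, the median and 1 or more of up to 4 tested genes with the lowest p in the list. The leukocyte and fibroblast lists, and lists with 2 or fewer tested genes, are given without a median, and no fibroblast gene is named. Further markers (Krt18, Krt8, Slc34a1, Ptprc and Csf1r) were singled out after their values were seen. The members and lists were chosen with earlier results of these data known. The limma script was tested on simulated data. It recovered 73% of 100 genes changed by 1 on the log2 scale and 99% of 100 changed by 2. Of 183 calls 11 were false. No smaller change was simulated, so recovery at the size of the STAT fold changes is unknown. Alternatives covered scaling, filters, pseudocount, length and GC, the replicate block and leaving out each library.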

Additional observations from a re-analysis of the deposited data

How the results depend on the processing

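No STAT gene passed the threshold under any alternative run. Stat3, Stat5a, Stat5b and Stat6 kept their direction under all of them. Leaving out each library in turn gave log2 fold changes of −0.49 to −0.32 for Stat3, −0.41 to −0.25 for Stat5a, −0.42 to −0.27 for Stat5b and −0.50 to −0.31 for Stat6. Stat2 ranged from −0.196 without YOD1 library 2 to 0.340 without YOD1 library 3, and was −0.00258 without control library 3. Stat4 could be fitted only with no filter on low values, at a log2 fold change of 0.0083 and a limma adjusted p of 0.771.

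The number of genes called by limma, 55 on the deposited values, depended more on the processing. It was 0 with no filter on low values, where 1411 genes were higher and 2016 lower at an unadjusted p under 0.05, and where 28789 genes were tested. It was 144 after median-ratio scaling, 33 after removal of the length and GC trend and 34 on a common total without ribosomal RNA genes, a setting added after seeing the data. The cause of these shifts was not tested. Calls split into 26 higher and 7 lower with the trend removed, against 51 higher and 4 lower on the deposited values. Leaving out one library gave 19 to 242 calls, with 19 without control library 2, 31 without control library 1, 132 without YOD1 library 3, and 242 without control library 3, of which 145 were higher and 97 lower.

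The replicate numbers are shared between groups, but deviations of same-numbered libraries from their group means had correlations of 0.30, −0.12 and −0.11 across genes, so the numbers were not taken as pairs. With the replicate block 41 genes were called, 33 higher and 8 lower, and the limma adjusted p of the STAT genes was 0.187 to 0.676. Not every library correlated best with its own number. The groups hold 3 libraries each, and the unknown read depth limits what can be said of Stat4 and other genes near 0.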
